A study of Sus scrofa with 8 samples.

Results

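The genes described here are the sensors of the unfolded protein response and the core of the integrated stress response. They comprise the endoplasmic reticulum sensors ERN1, ATF6 and EIF2AK3, the transcription factors XBP1, ATF4 and DDIT3, and the stress response genes CHAC1, TRIB3, ASNS and PPP1R15A, 10 genes of the 25880 pig genes counted. They were chosen by gene name, with earlier results of these data known. All 10 passed the filter on low counts that kept 17175 genes. The study sequenced mRNA of olfactory epithelium, frozen after dissection, from 8 newborn piglets to examine the molecular pathology of olfactory loss in cystic fibrosis. One group held 4 wild-type piglets (numbered 5, 9, 12 and 23) and the other 4 CFTR-null piglets (numbered 6, 18, 20 and 21), which lack the epithelial anion channel mutated in that disease. No treatment, litter or sex is given in the labels. Since the labels give every library its own piglet, the p-values reflect differences between animals.

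When unfolded proteins accumulate in the endoplasmic reticulum, the membrane sensors IRE1 (gene ERN1), ATF6 and PERK (gene EIF2AK3) become active. IRE1 splices the mRNA of XBP1, ATF6 is cut to release a transcription factor that raises chaperone genes, and PERK phosphorylates the translation factor eIF2, which lowers protein synthesis and favours translation of ATF4. Other kinases that sense amino acid shortage, double-stranded RNA or heme shortage phosphorylate the same factor, and the shared output is called the integrated stress response. Olfactory sensory neurons are known to use the PERK branch during maturation, when a newly expressed olfactory receptor triggers it and the ATF4 relative ATF5 is translated. Sensor activity, XBP1 splicing, eIF2 phosphorylation and protein were not measured here, and the values below are transcript levels.

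Library totals were 30836904 to 43253395 counts, and each of the 10 genes had at least 149 counts in every library. CFTR was lower in every knockout library (5.24 to 8.37 CPM, counts scaled to library size) than in every wild-type library (34.0 to 56.6 CPM), with a log2 fold change of -2.56 ± 0.21 (SE, edgeR Benjamini-Hochberg adjusted p = 0.0121), and was the only gene called at 0.05 among those tested. Knockout piglet 18 stood apart in bone and connective tissue genes, which summed to 42800 CPM in it and 1310 to 5380 CPM in the other libraries. Wild-type piglet 5 had the lowest summed level of mature olfactory neuron markers, 4880 CPM against 6050 to 8290 CPM. The defining neuron markers CNGA2, GNAL and ADCY3 were present in every library, so the tissue carried the signature of its label.

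The identifiers of these genes needed care. Of the 10, 7 were found by symbol and 3 by position. The identifier that the name table pairs with ERN1 (ENSSSCG00000039909, chromosome 12, 14966077 to 14997437, plus strand) shared no exon base with the RefSeq gene ERN1 and instead covered ICAM2, an adhesion molecule, and PRR29. An unnamed neighbour (ENSSSCG00000017279, chromosome 12, 14881893 to 14959567, plus strand) had 99.4% of its exon bases in ERN1 and is used for it here. ATF4 (ENSSSCG00000000084, chromosome 5, 8738880 to 8745368, minus strand) and DDIT3 (ENSSSCG00000040751, chromosome 5, 22781192 to 22789825, minus strand) were found the same way. These coordinates are those of the count table, whose build is not stated in the labels or headers. The DDIT3 model shared 33.3% of its exon bases with MARS1 on the other strand, and the PPP1R15A model shared 8.8% with TULP2. The strand setting of the counting is unknown, so the values of DDIT3 and, over a smaller share of bases, of PPP1R15A are uncertain. The models of ATF4, XBP1, DDIT3, CHAC1 and PPP1R15A extended beyond the RefSeq genes, which held 27.4% to 39.2% of their exon bases.

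Levels were compared between genes as CPM per kilobase of the gene model. ATF4 was the most abundant of the 10 at 77.7 CPM per kilobase over the 8 libraries (range 65.2 to 94.0), followed by XBP1 at 63.7 (49.6 to 81.4). ATF4 lay above XBP1 in 7 of 8 libraries, and their ranges overlapped. Both ranked above more than 95% of tested genes (96.8% for ATF4 and 95.7% for XBP1). ASNS, PPP1R15A, ATF6 and TRIB3 formed a middle band with means of 26.4 to 32.3 CPM per kilobase, and the ranges of neighbours in this band overlapped. EIF2AK3 followed at 11.2 and DDIT3 at 6.36. The lowest were ERN1 at 2.22 CPM per kilobase and CHAC1 at 1.19, above 29.8% and 20.9% of tested genes, and ERN1 lay above CHAC1 in 8 of 8 libraries. Of the 3 sensors, ATF6 was thus the most abundant transcript per length (26.8), EIF2AK3 intermediate and ERN1 the scarcest, with no overlap of their ranges. Parts of this order depend on the gene models. With all reads set against the exon bases inside the RefSeq gene alone, an alternative added after the data were seen, CHAC1 would reach 4.17, above ERN1 at 2.24, and DDIT3 23.2, above EIF2AK3 at 11.2. PPP1R15A would reach 80.2 and TRIB3 would also stand above ASNS, at 32.3, while ATF4, XBP1 and the 3 sensors would keep their order.

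Between knockout and wild-type piglets, 6 of the 10 genes had positive log2 fold changes and 4 negative ones. Their median was 0.13, against 0.01 over all genes tested. No member passed the adjusted threshold in edgeR, DESeq2 or limma. At an unadjusted edgeR p under 0.05 stood ATF6, PPP1R15A and CHAC1 on the higher side and XBP1 on the lower side, which is 4 of 10 members. Over 18 settings, the reported one included, the unadjusted p was under 0.05 in 17 for ATF6, 15 for PPP1R15A, 12 for XBP1 and 11 for CHAC1. The setting with an adjusted threshold of 0.1 reuses the reported fit, so the reported p is counted again in each. The settings share libraries, so these counts are not independent support. DESeq2 also gave these 4, and limma with sample quality weights gave 5, with ERN1 added. Over all genes 11.2% had an unadjusted edgeR p under 0.05, 5.4% on the higher and 5.8% on the lower side, and 0.00582% passed the adjusted threshold. The corresponding unadjusted shares over all genes were 13% in DESeq2 and 22.6% in limma. Since the members were chosen with earlier results of these data known, the 4 of 10 is no independent evidence. For single members the differences were between 0.79-fold (XBP1) and 1.57-fold (CHAC1). The plot of the 10 genes by library gives every value.

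**Figure D1:**
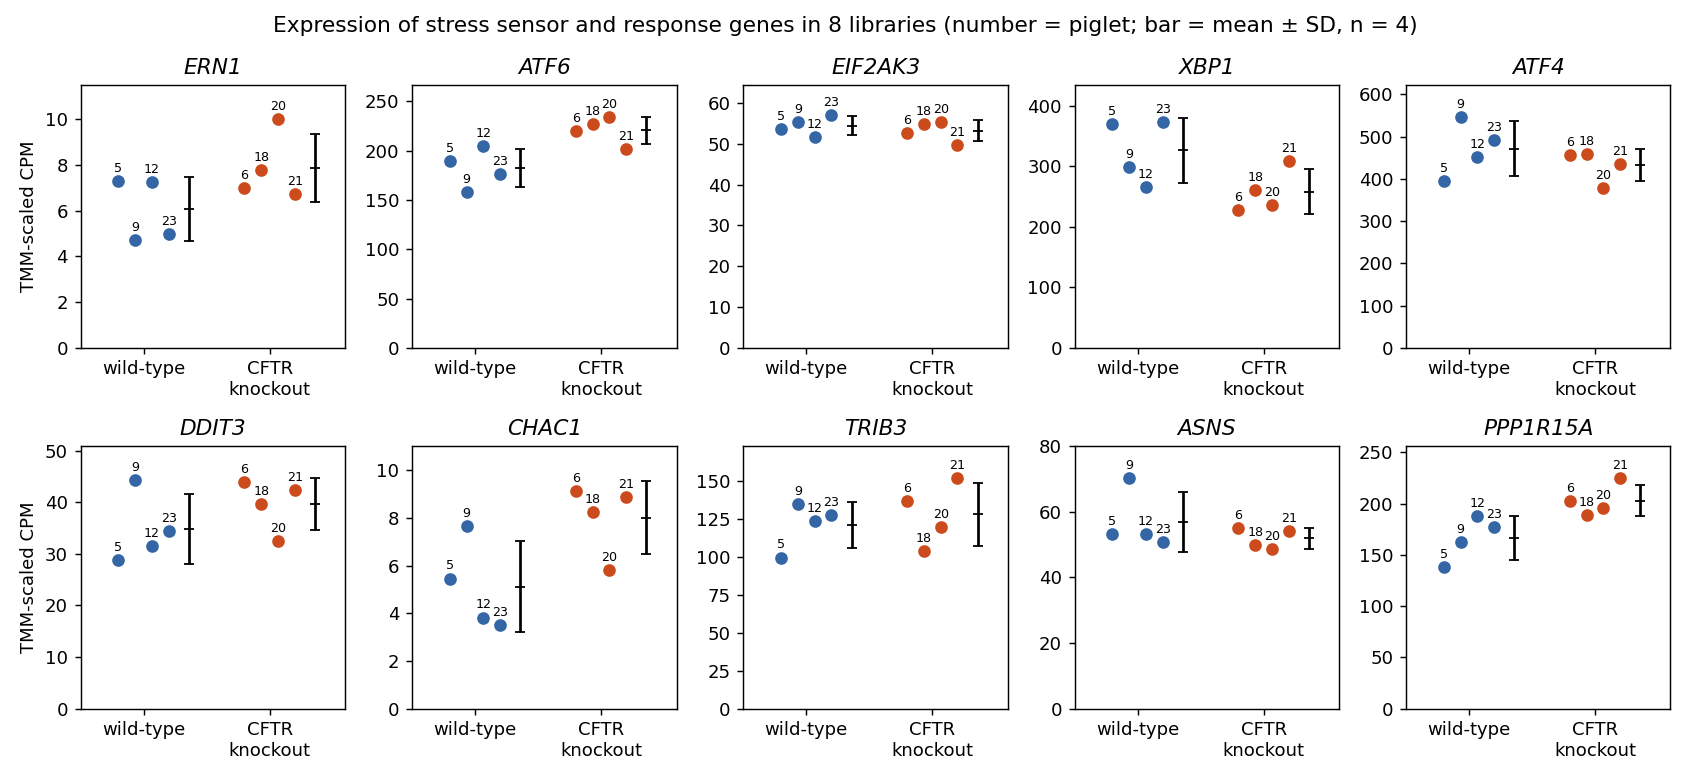
TMM-scaled CPM (vertical axes, starting at 0) of each gene in the 4 wild-type (blue) and 4 CFTR knockout (orange) libraries, numbered by piglet, with the mean ± SD of each group as a black bar. The groups are separate for PPP1R15A and overlap for the other 9 genes, and EIF2AK3 stays between 49.8 and 57.2 CPM throughout.

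The 3 sensors differed in how they stood. ATF6, the sensor that becomes a transcription factor, was 189, 158, 205 and 177 CPM in wild-type piglets 5, 9, 12 and 23 and 220, 227, 234 and 202 CPM in knockout piglets 6, 18, 20 and 21. The lowest knockout library (piglet 21) lay just under the highest wild-type library (piglet 12), and every other knockout value was above all wild-type values. Means were 182 ± 19.7 and 221 ± 13.8 CPM (SD, n = 4 each), and the log2 fold change was 0.27 ± 0.09 (SE, 95% interval 0.06 to 0.49, edgeR unadjusted p = 0.0177, adjusted p = 0.406).

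ERN1, the kinase and endoribonuclease that splices XBP1, was 7.29, 4.72, 7.25 and 4.98 CPM in wild-type and 6.99, 7.80, 10.01 and 6.74 CPM in knockout piglets. The wild-type libraries fell into a higher pair (5 and 12) and a lower pair (9 and 23), and the knockout values began between them. The log2 fold change was 0.38 ± 0.21 (95% interval -0.09 to 0.85, edgeR adjusted p = 0.502). The identifier paired with ERN1 by symbol gave 0.00 ± 0.25, a value of the ICAM2 and PRR29 region and not of this sensor.

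EIF2AK3, which encodes PERK, was the steadiest of the 10. It was 53.7, 55.3, 51.6 and 57.2 CPM in wild-type and 52.6, 54.9, 55.5 and 49.8 CPM in knockout piglets, a 1.15-fold range over all 8 libraries. Its biological coefficient of variation was 10.4%, and 96.9% of tested genes had a higher one. The log2 fold change of -0.03 ± 0.07 had a 95% interval of -0.19 to 0.12 (edgeR adjusted p = 0.854), the narrowest interval of the 10.

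XBP1, the transcription factor downstream of ERN1 that raises secretory pathway genes, had the most negative log2 fold change of the transcription factors. Its level was 369, 298, 265 and 373 CPM in wild-type and 227, 260, 236 and 309 CPM in knockout piglets. Wild-type piglets 5 and 23 were above every knockout library, whereas piglets 9 and 12 lay within the knockout range. The log2 fold change was -0.34 ± 0.14 (95% interval -0.66 to -0.02, edgeR unadjusted p = 0.0402, adjusted p = 0.431). Reads from the Y chromosome genes EIF1AY and KDM5D were found in wild-type piglets 9 and 12 and in no knockout library. By these reads sex was unbalanced between the groups, which holds for every comparison of genotypes here. With a term for sex the XBP1 log2 fold change was -0.52 ± 0.14 (edgeR adjusted p = 0.399). That fit in effect sets the knockout libraries against wild-type piglets 5 and 23 alone. With that term ATF6 had an unadjusted p of 0.0611, and the log2 fold changes of ATF4 and ASNS were -0.03 and 0.00. PPP1R15A and CHAC1 were at 0.36 and 0.84 (unadjusted edgeR p of 0.0248 and 0.0415). ERN1, DDIT3, TRIB3 and EIF2AK3 were at 0.36, 0.32, 0.18 and -0.06. XBP1 counts in this table do not separate the spliced from the unspliced mRNA.

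ATF4, the central transcription factor of the integrated stress response, is controlled mainly at translation. Its transcript was 394, 547, 452 and 492 CPM in wild-type and 457, 460, 379 and 436 CPM in knockout piglets. The lowest value was in knockout piglet 20 and the highest in wild-type piglet 9. The log2 fold change was -0.12 ± 0.12 (95% interval -0.39 to 0.14, edgeR adjusted p = 0.673).

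DDIT3 encodes CHOP, the factor tied to cell death when stress persists. It was 28.9, 44.4, 31.5 and 34.4 CPM in wild-type and 44.0, 39.6, 32.6 and 42.4 CPM in knockout piglets. Wild-type piglet 9 held the highest value of all and knockout piglet 20 stood near the wild-type values, so the groups overlapped (log2 fold change 0.19 ± 0.15, 95% interval -0.15 to 0.52, edgeR adjusted p = 0.611). MARS1, the methionyl-tRNA synthetase whose gene shares exon bases with DDIT3 on the other strand, differed in the other direction (log2 fold change -0.20 ± 0.09, edgeR adjusted p = 0.435).

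CHAC1, a glutathione-degrading enzyme induced through ATF4 and CHOP, had the largest fold change of the 10. It was 5.46, 7.66, 3.82 and 3.51 CPM in wild-type and 9.13, 8.25, 5.81 and 8.87 CPM in knockout piglets. Knockout piglets 6, 18 and 21 lay above all wild-type libraries, and knockout piglet 20 fell below wild-type piglet 9. The log2 fold change was 0.65 ± 0.27 (95% interval 0.04 to 1.26, edgeR unadjusted p = 0.0399, adjusted p = 0.431). Counts were 151 to 401 per library, as low as those of ERN1 (149 to 439), and the coefficient of variation was the highest at 29.5%.

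PPP1R15A encodes GADD34, the phosphatase subunit that reverses eIF2 phosphorylation and so ends the translational arrest. It was the only member whose groups did not overlap. It was 138, 162, 188 and 177 CPM in wild-type and 203, 189, 196 and 225 CPM in knockout piglets, so that wild-type piglet 12 came just under knockout piglet 18. Means were 167 ± 21.4 and 203 ± 15.5 CPM (SD, n = 4 each), and the log2 fold change was 0.29 ± 0.11 (95% interval 0.05 to 0.53, edgeR unadjusted p = 0.0248, adjusted p = 0.409). The two-sided exact permutation p was 0.0286, the smallest this design can give. Groups did not overlap in 5.81% of all tested genes, 2.45% with the knockout group higher and 3.36% with it lower.

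The remaining targets did not separate the genotypes. TRIB3, a pseudokinase that feeds back on ATF4 and CHOP, was 99.5, 135, 124 and 127 CPM in wild-type and 137, 104, 119 and 152 CPM in knockout piglets (log2 fold change 0.08 ± 0.13, edgeR adjusted p = 0.822). Each group thus held a library near 100 CPM and another above 130 CPM. ASNS, the asparagine synthetase raised by ATF4 on amino acid shortage, was 53.1, 70.4, 53.1 and 50.8 CPM in wild-type and 54.9, 49.8, 48.5 and 54.2 CPM in knockout piglets (log2 fold change -0.13 ± 0.11, edgeR adjusted p = 0.637). Apart from wild-type piglet 9, all ASNS values lay between 48.5 and 54.9 CPM.

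**Figure D2:**
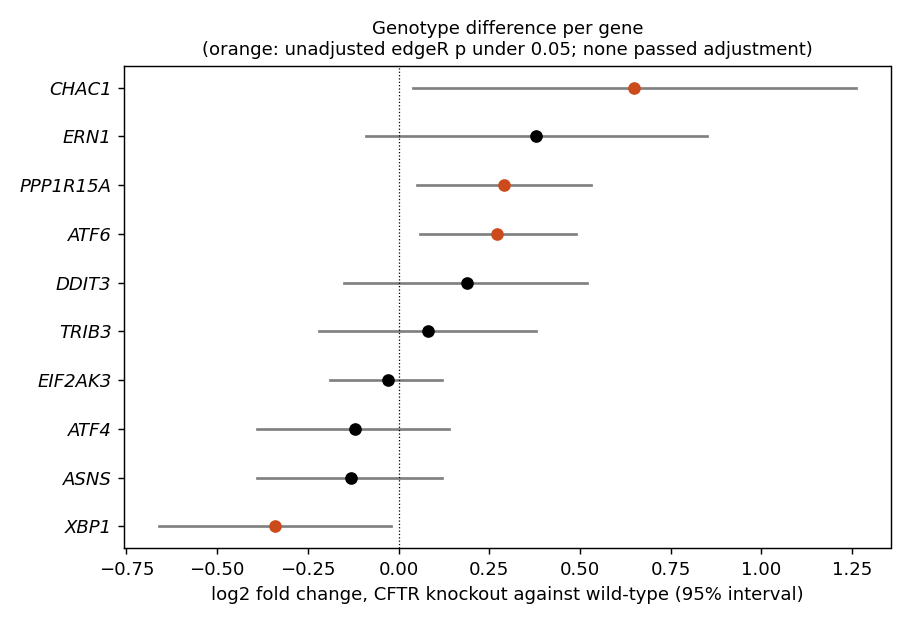
Log2 fold change of CFTR knockout against wild-type (horizontal axis) for each of the 10 genes, with edgeR 95% intervals as grey lines. The 4 genes in orange (CHAC1, PPP1R15A, ATF6 and XBP1) have an unadjusted p under 0.05 and intervals that leave out 0, and none passed adjustment over all genes.

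The rest of the pathway was read from gene lists, counted beside the members. The lists were drawn up with earlier results of these data known, so their counts are no independent evidence. Over 118 further pathway genes tested, 51 were positive and 67 negative in log2 fold change (median -0.03), and none was called by edgeR. An unadjusted p under 0.05 was found for 4 on the higher and 19 on the lower side (19.5%, against 11.2% of all genes). DESeq2 called 8 of them, CALR, CRELD2, HSPA5, HYOU1, MANF, PDIA4 and PDIA6 lower and CBS higher, where it called 1.31% of all genes, and limma called HYOU1, where it called 0.064% of all genes.

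ATF6 target genes, mostly endoplasmic reticulum chaperones, had the lowest median of the pathway lists. Of the 19 lower genes just counted, 8 are ATF6 targets and 8 are XBP1 targets. Of 12 ATF6 targets tested, 10 were negative, with a median log2 fold change of -0.56. On the lower side 9 had an unadjusted p under 0.05, XBP1 among them, against 5.8% of all genes. The list was drawn up with these chaperones known to be lower in these libraries, so the count is no independent evidence. The ATF6 transcript itself stood the other way. HSPA5, the chaperone BiP that holds the sensors inactive, was 585, 661, 473 and 809 CPM in wild-type and 377, 456, 367 and 391 CPM in knockout piglets (log2 fold change -0.67 ± 0.16, edgeR adjusted p = 0.334). HYOU1, CALR and CRELD2 had log2 fold changes of -0.49 ± 0.08, -0.83 ± 0.17 and -0.89 ± 0.21 (edgeR adjusted p of 0.245, 0.326 and 0.326). SEL1L, an adaptor of endoplasmic reticulum degradation picked after its value was seen, was the positive exception with an unadjusted p under 0.05. It was 172 to 208 CPM in wild-type and 231 to 246 CPM in knockout piglets (log2 fold change 0.27 ± 0.08, edgeR adjusted p = 0.371).

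XBP1 target genes had smaller differences on the same side. Of 27 tested, 18 were negative (median -0.09). On the lower side 8 (29.6%) had an unadjusted p under 0.05, against 5.8% of all genes, and none did on the higher side. This list too was drawn up with earlier results known. PDIA6, a disulfide isomerase, was at -0.59 ± 0.14, SRPRB, a subunit of the signal recognition particle receptor, at -0.27 ± 0.09, the translocon subunit SEC61B at -0.36 ± 0.14 and the translocation protein TRAM1 at -0.27 ± 0.11 (edgeR adjusted p of 0.326, 0.396, 0.418 and 0.419). Among relatives and partners of the sensors, 10 of 17 were negative (median -0.06). Those with an unadjusted p under 0.05, HSPA5, PDIA6 and SEC61A1, are already counted among the ATF6 or XBP1 targets. MBTPS1, the protease that cuts ATF6, was at 0.17 ± 0.10 (edgeR adjusted p = 0.510). ATF6B, the close relative of ATF6, was 69.0 to 83.3 CPM in all libraries, with a log2 fold change of 0.02 ± 0.08, and was picked after its value was seen. ERN2, the IRE1 form of mucous epithelia, was also picked after its value was seen. It was 2.21 CPM in wild-type piglet 5 and 0.0725 to 0.411 CPM in the others.

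ATF4 target genes showed no common direction. Of 43 tested, 20 were positive and 23 negative, with a median of -0.01, and 3 (6.98%) had an unadjusted p under 0.05, a share below the 11.2% of all genes. CBS, a transsulfuration enzyme, was 6.75 to 9.55 CPM in wild-type and 11.8 to 14.7 CPM in knockout piglets (log2 fold change 0.61 ± 0.15, edgeR adjusted p = 0.334). The glycine transporter SLC6A9 was at -0.50 ± 0.15 (edgeR adjusted p = 0.371), and MARS1 and the proline synthesis enzyme ALDH18A1 at -0.20 ± 0.09 and -0.17 ± 0.08. ATF5, the olfactory neuron factor of this family, picked after its value was seen, reached 538 CPM per kilobase, more than ATF4. Wild-type piglet 5 had 1092 CPM and the remaining 7 libraries 1618 to 2044 CPM. Its log2 fold change was 0.04 ± 0.19 (edgeR adjusted p = 0.936).

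Kinases, subunits and phosphatases acting on eIF2 were balanced. Of 20 tested, 9 were positive and 11 negative, with a median of 0.00. The other eIF2 kinases, singled out with their values known, stood at log2 fold changes of 0.07 ± 0.07 for EIF2AK1, 0.17 ± 0.15 for EIF2AK2 and -0.06 ± 0.13 for EIF2AK4. PPP1R15B, the constitutive partner of PPP1R15A, was 255 to 295 CPM in wild-type and 300 to 353 CPM in knockout piglets. Its log2 fold change was 0.23 ± 0.09 (edgeR adjusted p = 0.422). In 3 genes of this list, PPP1R15B and EIF2B2 among them, the knockout group was higher without overlap, against 2.45% of all tested genes. EIF2B2, a subunit of the exchange factor that eIF2 phosphorylation inhibits, was at 0.23 ± 0.08 (edgeR adjusted p = 0.407), DELE1, which relays mitochondrial stress to this pathway, at -0.28 ± 0.10 (edgeR adjusted p = 0.409), and the kinase inhibitor DNAJC3 at -0.25 ± 0.12 (edgeR adjusted p = 0.460). Death and arrest genes downstream of CHOP were positive in 6 of 8 (median 0.21), where 51.6% of all genes tested were positive. None had an unadjusted p under 0.05. BBC3 (0.41 ± 0.24) and BCL2L11 (0.40 ± 0.27), inducers of apoptosis, the oxidase ERO1A (0.09 ± 0.06) and the growth inhibitor DDIT4 (0.46 ± 0.37) had the smallest p of that list. DDIT4 was 152.3 CPM in knockout piglet 18, against 51.78 to 74.92 CPM in the other knockout and 44.35 to 93.39 CPM in the wild-type libraries.

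**Figure D3:**
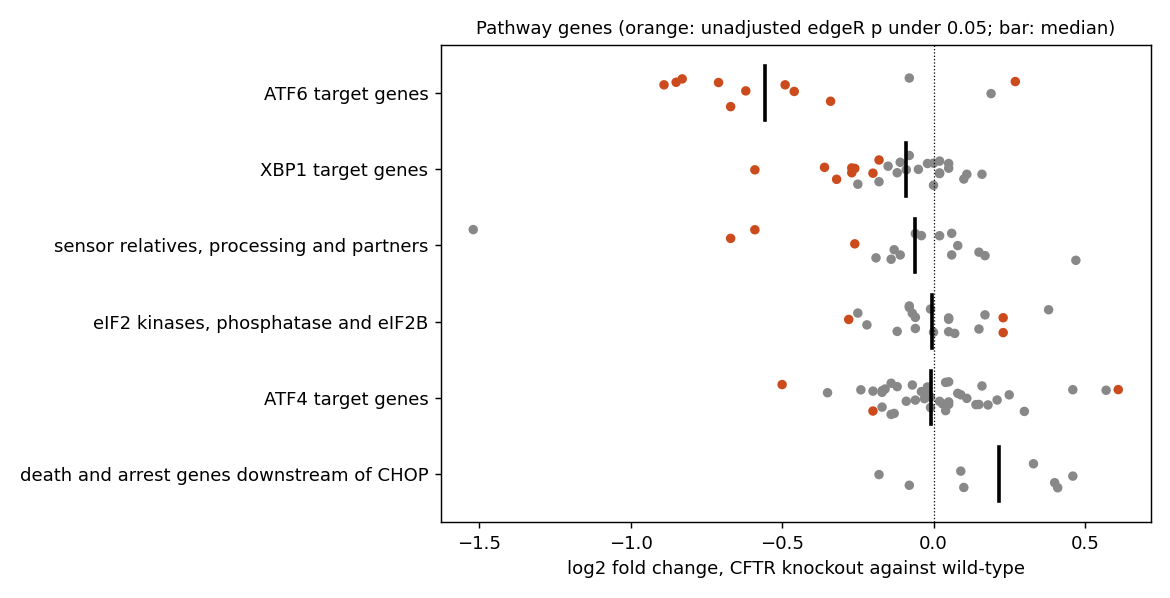
Log2 fold change of CFTR knockout against wild-type (horizontal axis) for each tested gene of 6 pathway lists, with the list median as a black bar and genes with an unadjusted edgeR p under 0.05 in orange. The median is -0.56 for ATF6 target genes and -0.01 for ATF4 target genes.

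Members were also compared across the 8 libraries. Among their 45 pairs, 22 correlations of log2 CPM were positive, 4 had an unadjusted permutation p under 0.05 and none passed adjustment over the pairs. The closest pair was the sensors ERN1 and ATF6, with Pearson r = 0.90 (exact permutation p = 0.00139, adjusted 0.0625) and Spearman rho = 0.83 (exact permutation p = 0.0154, adjusted 0.390). Without the 2 libraries farthest from the median of ERN1, r was 0.67. DDIT3 and CHAC1, which lie on the same branch, had r = 0.76 (exact permutation p = 0.0338, adjusted 0.381) and rho = 0.69 (exact permutation p = 0.0694, adjusted 0.390), and r = 0.86 without the 2 farthest libraries. The other pairs with an unadjusted p under 0.05 ran in opposite directions. ERN1 and ATF4 had r = -0.87 (exact permutation p = 0.00928, adjusted 0.209) and rho = -0.69 (exact permutation p = 0.0694, adjusted 0.390), and r = -0.65 without the 2 farthest libraries. ATF6 and ASNS had r = -0.74 (exact permutation p = 0.0311, adjusted 0.381) and rho = -0.55 (exact permutation p = 0.171, adjusted 0.453), and r = -0.66 without the 2 farthest libraries.

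PPP1R15A followed the level of mature olfactory neuron markers. Against the mean log2 CPM of the 14 marker genes, r was 0.97 (exact permutation p = 0.000149, adjusted 0.00595 over 40 relations of members with 4 marker scores) and rho was 0.93 (exact permutation p = 0.00223, adjusted 0.0893). It was the only one of the 40 to pass adjustment by r, and none passed by rho. After each group's mean was removed, r was 0.96, and without wild-type piglets 5 and 9, the 2 with the scores farthest from the median, it was 0.86. Of 17161 tested genes outside the marker list, 16 (0.0932%) had an r at least as high, PPP1R15A included, and the median r was -0.03. With 4 libraries per group, r was not tested within a genotype.

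The neuron markers themselves leaned toward the knockout group. They were positive in 13 of 14 genes (median log2 fold change 0.29), and summed to 4880 to 7380 CPM in wild-type and 7030 to 8290 CPM in knockout libraries. CNGA2, GNAL and ADCY3 were picked with their values known. They were at 0.48 ± 0.17, 0.44 ± 0.18 and 0.39 ± 0.17, with edgeR adjusted p of 0.407 to 0.445. S100A5, the negative marker, was at -0.51 ± 0.20 (edgeR unadjusted p = 0.0289, adjusted p = 0.414). GNG13, EBF1 and LHX2 were at 0.04 ± 0.19, 0.12 ± 0.13 and 0.14 ± 0.11. The part of neuron content in the PPP1R15A difference was not tested, and in bulk tissue more cells of a type and more RNA per cell cannot be told apart.

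**Figure D4:**
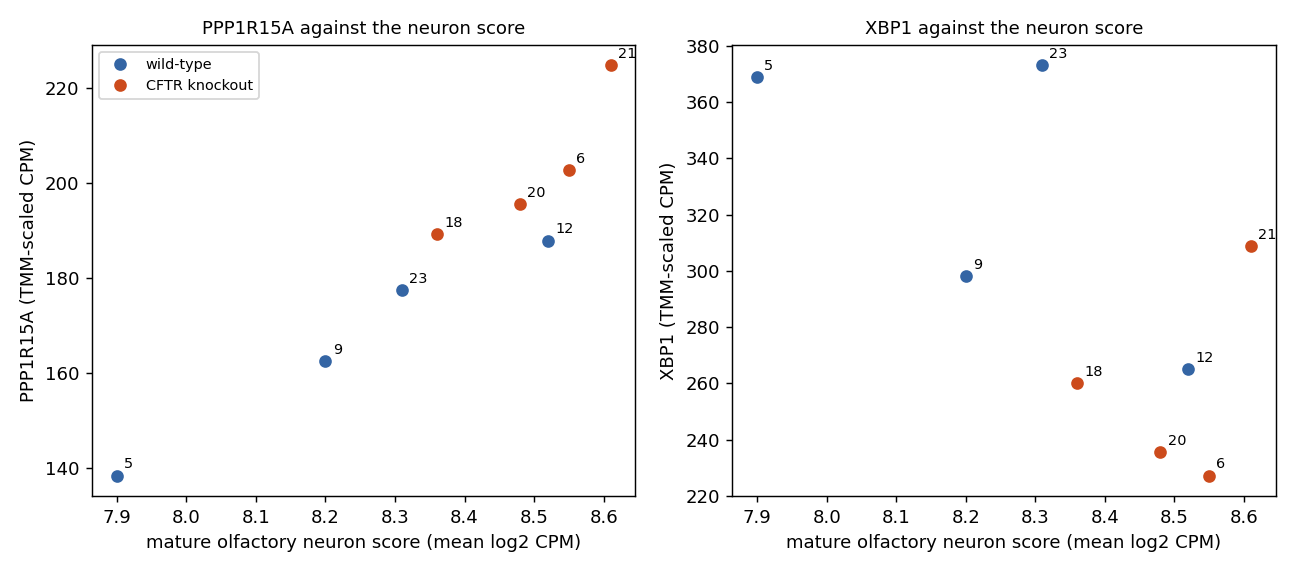
TMM-scaled CPM (vertical axes, not starting at 0) of PPP1R15A (left) and XBP1 (right) against the mean log2 CPM of 14 mature olfactory neuron markers (horizontal axes), with wild-type libraries in blue and CFTR knockout libraries in orange, numbered by piglet. PPP1R15A runs from 138 CPM in piglet 5 to 225 CPM in piglet 21 along the score (r = 0.97), and XBP1 has r = -0.65. With each group's mean removed, r is 0.96 for PPP1R15A and -0.40 for XBP1.

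Markers of other sources stood as follows beside XBP1, ATF6 and PPP1R15A. Genes of the immediate early and heat shock response, which handling can induce, were negative in 12 of 16 (median -0.11) and summed to 2190 to 3270 CPM in wild-type and 1430 to 1880 CPM in knockout libraries. HSPA8, the constitutive cytosolic HSP70, carried this separation, with 1400 to 2330 CPM in wild-type and 803 to 1150 CPM in knockout libraries. Without it, a setting added after the data were seen, the list summed to 779 to 943 and 627 to 878 CPM, which overlapped. DESeq2 called HSPA8 and HSPH1 of this list lower, limma called HSPA8, and edgeR called none. XBP1 had r = 0.77 with their mean log2 CPM (exact permutation p = 0.0263, adjusted 0.526) and rho = 0.76 (exact permutation p = 0.0368, adjusted 0.490), and r = 0.44 without the 2 farthest libraries. ATF6 ran against it, with r = -0.73 (exact permutation p = 0.0401, adjusted 0.535) and rho = -0.83 (exact permutation p = 0.0154, adjusted 0.308), and r = -0.72 without the 2 farthest libraries. PPP1R15A, itself inducible by stress of many kinds, had r = -0.38 (exact permutation p = 0.351, adjusted 0.912) and rho = -0.45 (exact permutation p = 0.267, adjusted 0.748) with the same score, and -0.15 without the 2 farthest libraries. After each group's mean was removed, r with this score was 0.61 for XBP1, -0.49 for ATF6 and 0.15 for PPP1R15A. Secretory respiratory cell genes were negative in 6 of 8 tested (median -0.27), and summed to 1680 CPM in wild-type piglet 5 and 442 to 839 CPM in the others. Sustentacular and Bowman gland genes, markers of supporting and glandular cells, were negative in 8 of 10 (median -0.17) and summed to 4640 to 6060 CPM in wild-type and 4210 to 5430 CPM in knockout libraries. Plasma and B cell genes, which mark a cell type rich in XBP1, summed to 21.6 to 30.3 CPM, highest in knockout piglet 18. Of these 10 genes, 8 passed the filter on low counts. The part of handling and of these cell types in the XBP1 and ATF6 differences was not tested. With wild-type piglet 5 and knockout piglet 18 left out, the log2 fold changes were -0.29 for XBP1, 0.27 for ATF6, 0.23 for PPP1R15A and 0.67 for CHAC1, with unadjusted edgeR p of 0.119, 0.0494, 0.042 and 0.0821.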

How the data were processed

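RNA-seq was done on olfactory epithelium of 8 newborn piglets. Per the labels' protocols, RNA was column-purified with DNase treatment and libraries were made with a TruSeq kit. The authors deposited raw counts per gene, in the layout of featureCounts output per the file headers. The submitters' processing notes name STAR 2.4.0, Subread 1.5.0-p3 with featureCounts, FastQC, DESeq2 and HTSeq, without roles. Build and strand setting are not given in the sources used here. Gene length, which has another unit (bases), was deposited beside the counts.

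The 25880 pig genes held at least 99.9982% of counts, and 5988 other identifiers were left out. Symbols came from a name table for 14857 identifiers. Another 1663 were named by position from RefSeq genes of Sscrofa11.1, mostly by an overlap of at least 50% of both spans. ERN1, ATF4 and DDIT3 were placed by hand from their overlap. No sequence is shown.

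Counts were fitted with edgeR 4.0.16 (quasi-likelihood test, TMM, default filter, genotype as factor) in R 4.3.3, with Benjamini-Hochberg adjustment over 17175 genes at 0.05. DESeq2 1.42.0 and limma 3.58.1 were alternatives. CPM values are TMM-scaled. Standard errors come from the F statistic. Correlations used log2 CPM with a prior count of 2 and enumerated all pairings of 8 libraries. The fits were tested on simulated data. The common biological coefficient of variation was 26.5%.

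The members and lists were chosen with earlier results of these data known. Named are CFTR, the members, called genes and, per pathway list, up to 4 genes with the smallest p. SEL1L, ERN2 and the neuron markers were picked with their values known, as were other genes so marked.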

Additional observations from a re-analysis of the deposited data

Results flagged for a closer look

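ASNS in wild-type piglet 9 was 70.4 CPM, whereas the other wild-type libraries were 50.8 to 53.1 CPM. The gap to the nearest library took 0.884 of the group's range, above Dixon's 95% critical value of 0.829 for 4 samples. It was the only such value among the 22 groups examined, the 10 genes and the second ERN1 identifier in each genotype, and chance flags about 1 in 20 groups. The same piglet also had the highest ATF4 (547 CPM), DDIT3 (44.4 CPM) and wild-type CHAC1 (7.66 CPM) values.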

How the results depend on the processing

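No member was called under any of the 17 alternative settings, with a smallest adjusted p of 0.115 (ATF6, limma). Of 170 log2 fold changes of members under these settings, 2 turned, both for TRIB3, to -0.01 without wild-type piglet 5 and to -0.01 without knockout piglet 21 (-0.01 to 0.16 when each library was left out). Those at a threshold of 0.1 repeat the reported fit and could not turn. The other 168 kept their sign before rounding, 2 of them at 0.00 (ASNS with sex as a covariate, EIF2AK3 without knockout piglet 21). The ranges were 0.21 to 0.33 for ATF6, 0.20 to 0.36 for PPP1R15A, 0.51 to 0.91 for CHAC1, -0.52 to -0.27 for XBP1, 0.24 to 0.48 for ERN1, 0.10 to 0.32 for DDIT3, -0.24 to -0.03 for ATF4 and -0.18 to 0.00 for ASNS, and lay near 0 for EIF2AK3 (-0.08 to 0.00) and TRIB3 (-0.01 to 0.18). Single libraries moved others by over 1.5 times: ERN1 was 0.24 without knockout piglet 20, DDIT3 0.10 without wild-type piglet 5 and 0.32 without wild-type piglet 9, ATF4 -0.21 and -0.05 without these and -0.07 without knockout piglet 20, and ASNS -0.01 without wild-type piglet 9. Over all genes the count of calls was 1 in edgeR, 219 in DESeq2, 11 in limma, 4 at a threshold of 0.1, 2 without knockout piglet 18 and wild-type piglet 5 together, and 0 to 17 when each library was left out in turn, with 0 without knockout piglet 6 and 17 without wild-type piglet 12. Pathway genes called were 0 in edgeR, 8 in DESeq2 and 1 in limma. The causes were not tested. No paired analysis was possible because the labels give no litter or other pairing of the piglets. CHAC1 and ERN1, with the fewest counts, are the least precise.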
